A study of Saccharomyces cerevisiae with 6 samples.

Results

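Cytosolic translation factors are the proteins that load messenger RNA onto the ribosome, carry it along the coding sequence and release the finished protein. The gene module described here holds 38 such genes of the budding yeast Saccharomyces cerevisiae, taken by name: 27 of initiation, 8 of elongation and 3 of termination and ribosome recycling. All 38 were found among the 6400 named entries of the deposited table, and all 38 passed the filter on low values. Poly(A) RNA was sequenced from 6 libraries of the laboratory strain W303, in 3 groups (T1, T2 and T3) of 2 libraries, replicates A and B. Every library is titled as an arrest sample, and the groups stand for 3 mean sizes of the cells in culture. No size, time or arrest method is labelled for any group, nor is there a treatment that sets a group apart or a genotype beyond the strain name, so the groups are compared by name. Nothing in the labels says that A and B came from separate cultures, so p-values measure the spread between these libraries, which may be technical.

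In yeast, as in other eukaryotes, initiation begins when eIF4E binds the cap of a messenger RNA and, with the scaffold eIF4G and the helicase eIF4A, prepares it for the small ribosomal subunit. That subunit carries eIF1, eIF1A, eIF3, eIF5 and the initiator tRNA on eIF2 with GTP, scans to the start codon, and is joined by the large subunit with the help of eIF5B. eIF2B recharges eIF2 with GTP and is the step that the kinase Gcn2 slows when amino acids are short. Elongation needs eEF1A, its exchange factor eEF1B, eEF2 and, in fungi, the ATPase eEF3. Release needs eRF1 and eRF3, and the ATPase Rli1 splits the ribosome afterwards. Translation factor genes are known as growth genes in yeast, and many carry upstream of their start codon a site called the RRPE (ribosomal RNA processing element), with the core AAAATTTT.

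The deposited unit is TPM, each transcript's length-corrected share of all transcripts, so it is a relative abundance and a lower TPM is a smaller share of the poly(A) RNA and not a smaller number of molecules per cell. In bulk cultures, fewer cells that express a gene and less RNA of it per cell cannot be told apart. Recovered depths were 17872647 to 23534529 fragments per library. Members held between 1930 fragments (GCD7) and 88398 fragments (TEF2) in a library. The median difference of the replicates over the 38 genes came to 0.09 (T1), 0.12 (T2) and 0.10 (T3) on the log2 scale, against a counting error of about 0.02 in each group. Depth therefore did not limit these comparisons, and the spread between the 2 libraries of a group did.

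The core AAAATTTT was searched on both strands from 250 bases before to 50 bases after the start codon of each gene, in the R64 genome. It reads the same on both strands. It was found for 24 of the 38 translation factor genes (63.2%) and for 542 of 6001 protein-coding genes (9.03%). In 23 of the 24 genes at least 1 match lay before the start codon, at 96 to 213 bases from it, and in PRT1 the match lay inside the coding sequence. The following stretches of 30 bases are those of the 6 genes with the largest falls in T3 that hold a match before the start codon, and of SUI1, which rose. The coding strand is shown 5′ to 3′ with the core in capitals.
TIF4631: ttttttcaagaAAAATTTTcgatgccgcgt
RPG1: ttgccaggtgaAAAATTTTtcttggtgaac
TIF3: accacggaatgAAAATTTTtttgcggaaat
TEF4: aaattgaaagaAAAATTTTtttcatcaaca
YEF3: ttgcgttggtgAAAATTTTttcgcttcctc
TIF35: gtaacgaagttAAAATTTTtttctttcact
SUI1: tgcgccggcaaAAAATTTTagttttttttt
In R64 these stretches lie at chrVII:823835-823864 (TIF4631, plus strand), chrII:398355-398384 (RPG1, minus), chrXVI:870119-870148 (TIF3, minus), chrXI:282741-282770 (TEF4, plus), chrXII:636580-636609 (YEF3, plus), chrIV:1325407-1325436 (TIF35, minus) and chrXIV:187644-187673 (SUI1, minus).

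Other motifs were not as common among the members. GATGAG, the core of the PAC element, was found for 9 of 38 members (23.7%) and 20.4% of all genes, AGGGG, the stress response element, for 4 members (10.5%) and 21.6% of all genes, and ACCCNNACA, a core of the Rap1 site, for 1 member (2.63%) and 2.83% of all genes. In the 500 bases before the start codon, a window added after the data were seen, these counts became 13, 9 and 3 members (34.2%, 23.7% and 7.89%, against 28.3%, 34.1% and 5.47% of all genes), while AAAATTTT was again found for 24 members (63.2%, against 12.4% of all genes). In that window PAB1, with a match 322 bases before its start codon, took the place of PRT1. A match is a run of letters and was not tested as a binding site.

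The outermost groups, T1 and T3, were compared first, to ask how far the translation factor transcripts differed between them. Of the 38 genes, 19 fell, 2 rose and 17 were not called (limma's test, at an adjusted p under 0.05 over 6046 genes). Over all 6046 genes tested, 16.9% fell and 31.0% rose, 48.0% in either direction, so 50% of the members and 16.9% of all genes fell. The median log2 change was -0.21 over the members and 0.09 over all genes tested. The 6 largest falls were those of TIF4631 (eIF4G), RPG1 (eIF3a), TIF3 (eIF4B), TEF4 (eEF1B), YEF3 (eEF3) and PRT1 (eIF3b). No gene of eIF2B passed the test. SUI1, the gene of eIF1, and CAM1, a gene of an eEF1B subunit, were the 2 that rose. Without T1 replicate B or without T3 replicate B, 12 members fell, against 12.8% and 11.7% of all genes, and CDC33, PAB1, TIF1, TIF2, TEF2, EFT2 and RLI1 lost their call in both settings. After median-of-ratios rescaling 26 fell and 1 rose, and after quantile normalization, which moves the median of all genes from 0.09 to -0.04, again 26 fell and 1 rose. Over all genes these rescalings gave 25.9% lower and 26.3% higher (median of ratios) and 28.5% lower and 23.5% higher (quantile).

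**Figure D1:**
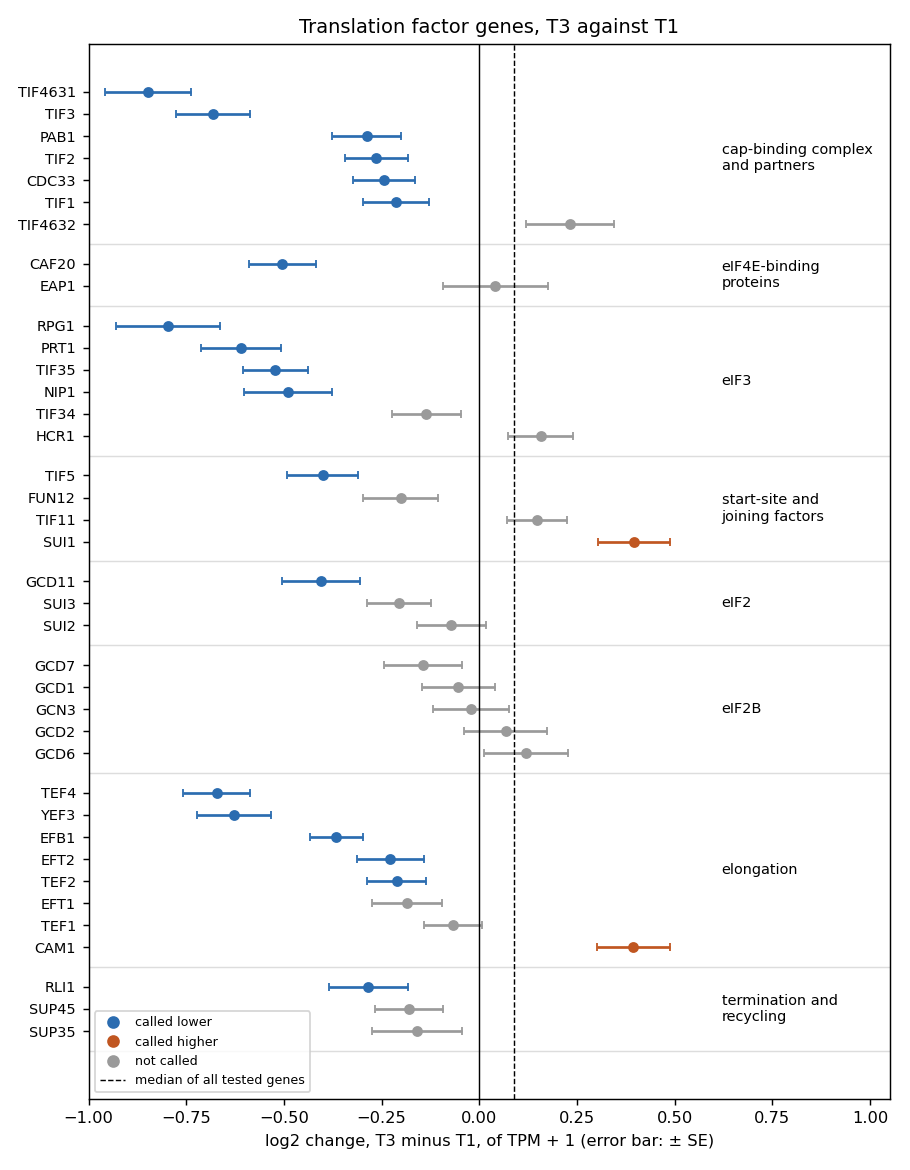
Log2 change of T3 minus T1 on the log2(TPM + 1) scale for the 38 translation factor genes, grouped by complex, with bars of ± SE from limma. Blue points passed the test as lower (19 genes), orange as higher (2 genes), and the dashed line is the median of all tested genes, 0.09.

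From T1 to T3, the cap-binding complex and its partners fell in 6 of 7 members, against 16.9% of all genes. TIF4631 (YGR162W, chromosome VII, 824059 to 826917) encodes the more abundant eIF4G, the scaffold that holds eIF4E, eIF4A and the poly(A)-binding protein together. It lay at 174 and 194 TPM in T1, 129.9 and 153 TPM in T2, and 109 and 95.0 TPM in T3. Each group lay wholly below the one before it. The log2 change from T1 to T3 was -0.85 (SE 0.11, adjusted p by limma = 2.81e-05), the largest fall of the module. TIF3, which encodes the eIF4A-stimulating factor eIF4B, lay at 372 and 410.5 TPM in T1, 299 and 332 TPM in T2, and 254 and 233 TPM in T3. These groups did not overlap either, and the log2 change was -0.68 (SE 0.09, adjusted p by limma = 5.04e-05).

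The remaining members of this complex moved less. CDC33, the eIF4E gene, lay at 553 ± 16.3 TPM in T1 and at 467 ± 7.92 TPM in T3 (mean ± SD, n = 2), and its log2 change was -0.24 (adjusted p by limma = 0.022). PAB1, the gene of the poly(A)-binding protein, changed on the log2 scale by -0.29 (adjusted p by limma = 0.0155). TIF1 and TIF2, which encode the same eIF4A protein, had log2 changes of -0.21 and -0.26 (adjusted p by limma = 0.0496 and 0.0166), and their sum had one of -0.24 (adjusted p by limma = 0.0177). The CDC33 call was lost in 4 of 17 other settings (adjusted p up to 0.132) and the PAB1 call in 2 (up to 0.131). TIF2 lost its call in 2 of 16 (up to 0.103). The TIF1 call lay next to the threshold and was lost in 10 of 17 other settings. TIF4632, the gene of the second eIF4G, lay at 51.0 and 58.5 TPM in T1 and at 69.3 and 59.6 TPM in T3, and missed the threshold (log2 change 0.23, adjusted p by limma = 0.104). Of the 2 proteins that compete with eIF4G for eIF4E, CAF20 fell from 301 ± 10.4 to 212 ± 7.75 TPM (log2 change -0.50, SE 0.09, adjusted p by limma = 0.000312). EAP1, the other one, lay at 47.5 ± 5.51 TPM in T1 and 49.1 ± 8.32 TPM in T3 (adjusted p by limma = 0.826).

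eIF3 is the large factor that bridges the small subunit and the other factors. From T1 to T3, 4 of its 6 members fell, against 16.9% of all genes. RPG1, which encodes the largest subunit eIF3a, lay at 140.0 and 172 TPM in T1, 99.1 and 124 TPM in T2, and 98.4 and 80.1 TPM in T3. T1 was apart from both later groups. Its log2 change was -0.80 (SE 0.13, adjusted p by limma = 0.000269). PRT1 (eIF3b), TIF35 (eIF3g) and NIP1 (eIF3c) had log2 changes of -0.61, -0.52 and -0.49, with limma adjusted p-values of 0.000242, 0.000167 and 0.00276. TIF34, the gene of eIF3i, lay at 359 ± 20.9 TPM in T1 and 327 ± 16.8 TPM in T3 (log2 change -0.14, adjusted p by limma = 0.221). HCR1 encodes eIF3j, a loosely bound subunit that also acts in termination. It lay at 348 and 362 TPM in T1, 378 and 379 TPM in T2, and 408 and 384 TPM in T3. Its groups did not overlap, yet the log2 change of 0.16 did not pass the test (adjusted p by limma = 0.136), and the value was -0.06 after quantile normalization.

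The factors of start codon choice and subunit joining were split. SUI1 (YNL244C, chromosome XIV, 187170 to 187496) encodes eIF1, which keeps scanning ribosomes from starting at the wrong codon. It lay at 885 and 758 TPM in T1, 1068 and 952 TPM in T2, and 1046 and 1109.6 TPM in T3. All T3 and T2 libraries were above both T1 libraries, and the rise to T3 was 1.32-fold (log2 change 0.40, SE 0.09, adjusted p by limma = 0.00297). The call was lost after median-of-ratios rescaling (log2 change 0.30, adjusted p = 0.0774, the highest of its 17 other settings, which began at 1.66e-05). TIF11, the gene of eIF1A, had 956 ± 29.9 TPM in T1, 1117 ± 14.3 TPM in T2 and 1059 ± 62.7 TPM in T3, and missed the threshold (adjusted p by limma = 0.133). TIF5, which encodes the GTPase activator eIF5, fell from 217 ± 10.1 to 164 ± 4.45 TPM (log2 change -0.40, adjusted p by limma = 0.00257). FUN12, the gene of eIF5B, went from 195 ± 3.25 to 169 ± 10.9 TPM (log2 change -0.20, adjusted p by limma = 0.1).

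eIF2 and eIF2B are the pair on which control by Gcn2 acts. Limma called 1 of 3 and 0 of 5 of their genes lower, against 16.9% of all genes. Of the 3 eIF2 genes, GCD11, which encodes the GTP-binding gamma subunit, fell from 254 ± 19.3 to 192 ± 15.0 TPM (log2 change -0.40, adjusted p by limma = 0.0044). For SUI3, the gene of the beta subunit, the log2 change of -0.21 was just short of the threshold (adjusted p by limma = 0.0504), and for SUI2, the gene of the alpha subunit that Gcn2 phosphorylates, it was -0.07 (adjusted p by limma = 0.528). Of the 5 eIF2B genes, 0 were called by limma in either direction, against 48.0% of all genes. An unadjusted p under 0.05 was found for 0 of the 5, against 3295 of 6046 genes. The catalytic subunit gene GCD6 lay at 98.4 and 114 TPM in T1 and at 116 and 114 TPM in T3. Its log2 change was 0.12, with a 95% interval of -0.11 to 0.35. The intervals were -0.23 to 0.19 for GCN3, -0.36 to 0.07 for GCD7, -0.26 to 0.15 for GCD1 and -0.16 to 0.29 for GCD2. GCD7 passed as lower after median-of-ratios rescaling (log2 change -0.24, adjusted p = 0.0169), after quantile normalization (log2 change -0.28, adjusted p = 0.0109) and with the length trend removed (adjusted p = 0.00497). GCD1 passed as lower after quantile normalization (log2 change -0.18, adjusted p = 0.0448). In T2, GCD7 lay at 64.4 and 72.2 TPM against 80.2 and 88.2 TPM in T1 (log2 change -0.30, adjusted p by limma = 0.0557), and 5 of 17 other settings called it lower at that step. The difference between the eIF2B genes and the other initiation factor genes was not tested.

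Elongation factors held the most abundant transcripts of the module, with means over the 6 libraries of 2565 TPM for EFB1, 2029.6 TPM for TEF2 and 1791 TPM for TEF1. Of 8 genes, 5 fell and 1 rose from T1 to T3, against 16.9% and 31.0% of all genes. Among the falls, TEF2 and EFT2 belong to near-identical pairs of uncertain values, described below. EFB1, which encodes the exchange-active alpha subunit of eEF1B, lay at 2780.2 and 2824 TPM in T1, 2665 and 2769.9 TPM in T2, and 2257 and 2095 TPM in T3. The T3 libraries stood below all others, and the log2 change from T1 was -0.37 (SE 0.07, adjusted p by limma = 0.000652). The call was lost after quantile normalization (log2 change -0.13, adjusted p = 0.0819, in a range from 9.5e-05 over 17 settings). YEF3, the eEF3 gene, lay at 868 and 993 TPM in T1, 611 and 685 TPM in T2, and 633 and 569.9 TPM in T3. T2 and T3 overlapped and both stood below T1, with a log2 change of -0.63 from T1 to T3 (SE 0.09, adjusted p by limma = 0.000106).

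TEF4 and CAM1 encode alternative gamma subunits of eEF1B, with 64.5% identical residues, and they moved in opposite directions. TEF4 (YKL081W, chromosome XI, 282891 to 284455) lay at 809.8 and 813 TPM in T1, 702 and 763 TPM in T2, and 539 and 481 TPM in T3. CAM1 (YPL048W, chromosome XVI, 464401 to 465648) lay at 253 and 275 TPM in T1, 259.9 and 285 TPM in T2, and 363 and 331 TPM in T3. TEF4 was lowest and CAM1 highest in both T3 libraries. The log2 changes from T1 were -0.67 for TEF4 (SE 0.09, adjusted p by limma = 2.39e-05) and 0.39 for CAM1 (SE 0.09, adjusted p by limma = 0.00332). The rise of CAM1 was not called after quantile normalization (log2 change 0.17, adjusted p = 0.0793, the highest of 17 other settings, which began at 0.000951). TEF4 exceeded CAM1 by ratios of 3.20 and 2.96 in T1, by 2.70 and 2.68 in T2, and by 1.48 and 1.45 in T3. Their summed TPM was 1063 and 1088 in T1 and 902 and 812 in T3. An intron of TEF4 and one of EFB1 each hold a snoRNA gene, which the exonic lengths leave out.

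The stretches from 250 to 101 bases before the start codons of this pair are shown because their transcripts moved apart. TEF4 has the AAAATTTT core (capitals) and CAM1 has none in the searched window.
TEF4: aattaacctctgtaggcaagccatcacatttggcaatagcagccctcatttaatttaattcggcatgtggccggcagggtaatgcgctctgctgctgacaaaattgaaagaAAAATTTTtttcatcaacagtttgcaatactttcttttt
CAM1: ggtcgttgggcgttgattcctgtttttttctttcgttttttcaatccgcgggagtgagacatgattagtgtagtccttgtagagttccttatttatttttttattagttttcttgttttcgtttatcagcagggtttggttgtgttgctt
They lie at chrXI:282641-282790 (TEF4, plus strand) and chrXVI:464151-464300 (CAM1, plus strand) of R64. Among the other pairs, TIF1 has the core and TIF2 has none, and both fell. TEF1 has it and was not called, while TEF2 has none and fell. TIF4631 has it and fell, while TIF4632 has none and was not called. EFT1 and EFT2 both have it, and only EFT2 was called lower. Values within the TIF1 and TIF2, TEF1 and TEF2, and EFT1 and EFT2 pairs are uncertain, because their coding sequences are near-identical. The part of the core in these changes was not tested.

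The eIF4G pair changed its proportions in a similar way. TIF4631 exceeded TIF4632 by ratios of 3.42 and 3.32 in T1, by 2.57 and 2.71 in T2, and by 1.57 and 1.59 in T3. Groups did not overlap in this ratio. The aligned proteins, of 952 and 914 residues, differ at 501 positions, so reads of the 2 genes can be told apart, and all windows of 150 bases in either coding sequence occur once in R64. Summed TPM of the pair was 225 and 253 in T1 and 178 and 155 in T3. No test was run on these ratios.

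**Figure D2:**
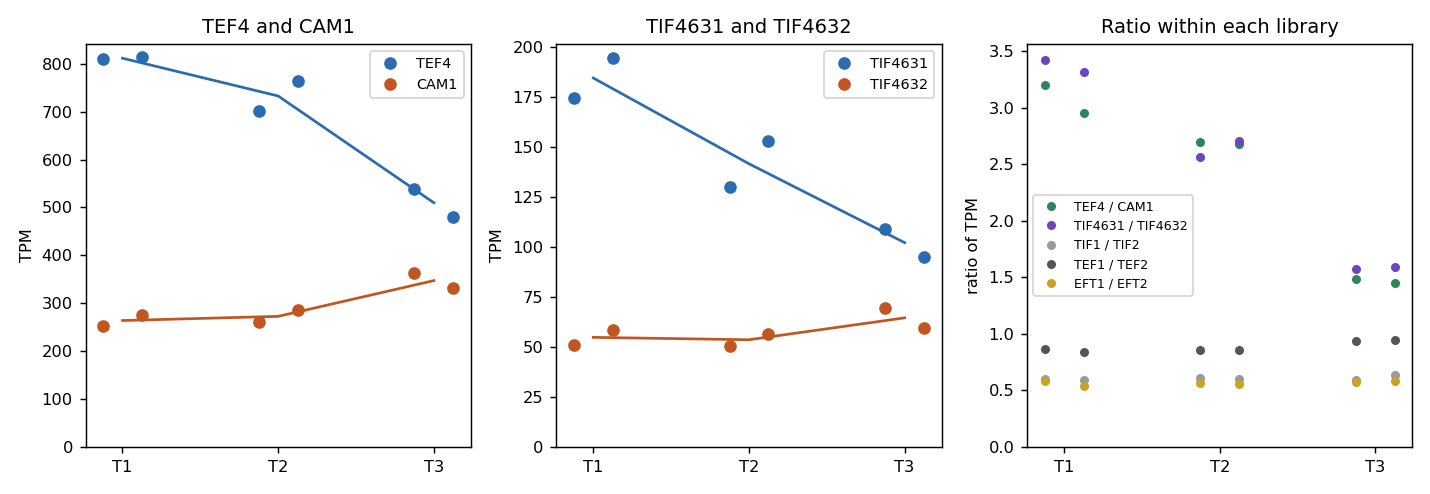
TPM of TEF4 and CAM1 (left) and of TIF4631 and TIF4632 (middle) in each library (points, replicate A left of B) with group means (lines), and ratios of the 2 genes of 5 pairs within each library (right). Both TEF4 over CAM1 and TIF4631 over TIF4632 go from about 3 in T1 to about 1.5 in T3, while TIF1 over TIF2 stays between 0.589 and 0.637.

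Pairs of near-identical genes gave uncertain values for 6 members. TIF1 and TIF2 differ at 6 of 1188 coding bases, TEF1 and TEF2 at 2 of 1377, and EFT1 and EFT2 at 4 of 2529, and each pair encodes a single protein sequence. Of windows of 150 bases, the length of a read, 36.8% in TIF1, 18.1% in TEF1 and 25.2% in EFT1 occur only once in R64. How reads that match both genes were counted is not given in the sources used here. The stretch from coding base 752 to 844, counted from 1 at the start codon, holds both differences of TEF1 and TEF2, T762C and T834C (base of TEF1, position, base of TEF2), in capitals.
TEF1: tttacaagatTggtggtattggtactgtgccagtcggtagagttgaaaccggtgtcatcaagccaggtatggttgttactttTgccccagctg
TEF2: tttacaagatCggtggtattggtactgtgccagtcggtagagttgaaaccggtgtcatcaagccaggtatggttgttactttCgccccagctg
They lie at chrXVI:701345-701437 (TEF1, plus strand) and chrII:478422-478514 (TEF2, plus strand).

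For eEF1A, the carrier of aminoacyl-tRNA, TEF1 lay at 1842 and 1896 TPM in T1 and 1853 and 1715 TPM in T3, with overlapping groups. TEF2 lay at 2127 and 2257 TPM in T1 and 1976 and 1811 TPM in T3, which did not overlap. By limma TEF2 passed as lower (log2 change -0.21, adjusted p = 0.0329) and TEF1 did not (log2 change -0.07, adjusted p = 0.479). Their sum did not pass (log2 change -0.14, adjusted p by limma = 0.105), and after quantile normalization the log2 change of TEF1 was 0.15 and that of TEF2 was -0.0044. For eEF2, the translocase, the log2 change was -0.23 for EFT2, -0.19 for EFT1 and -0.21 for their sum (adjusted p by limma = 0.0406, 0.104 and 0.044). The EFT2 call was lost in 9 and the TEF2 call in 5 of 16 other settings.

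From T1 to T3, 1 of the 3 genes of termination and recycling fell, against 16.9% of all genes. That gene was RLI1. It went from 107 and 115 TPM in T1 through 99.3 and 116 TPM in T2 to 92.0 and 90.1 TPM in T3 (log2 change -0.28, SE 0.10, adjusted p by limma = 0.0322). The T3 libraries were below the other 4. SUP45, the eRF1 gene, went from 321 ± 13.5 to 283 ± 1.16 TPM (log2 change -0.18, adjusted p by limma = 0.104), and SUP35, the eRF3 gene whose protein forms the [PSI+] prion, from 231 ± 28.3 to 206 ± 10.5 TPM (log2 change -0.16, adjusted p by limma = 0.268). The RLI1 call was lost in 4 of 17 other settings, with adjusted p-values up to 0.148.

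In summed TPM the 38 genes made up 1.80% and 1.86% of all TPM in T1, 1.66% and 1.76% in T2, then 1.62% and 1.54% in T3. The elongation factors held 0.933% and 0.970% in T1 and 0.819% and 0.754% in T3. eIF2B held 0.0463% and 0.0511% in T1 and 0.0489% and 0.0481% in T3, so its groups overlapped. The sum of the start-site and joining factors was the exception in direction, with 0.226% and 0.211% in T1 and 0.241% and 0.254% in T3. Of these, SUI1 and TIF11 had means over the 6 libraries of 970 and 1044 TPM, against 190 TPM for TIF5 and 181 TPM for FUN12. The median log2 change of the 4 genes was -0.03, with 2 above and 2 below 0.

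**Figure D3:**
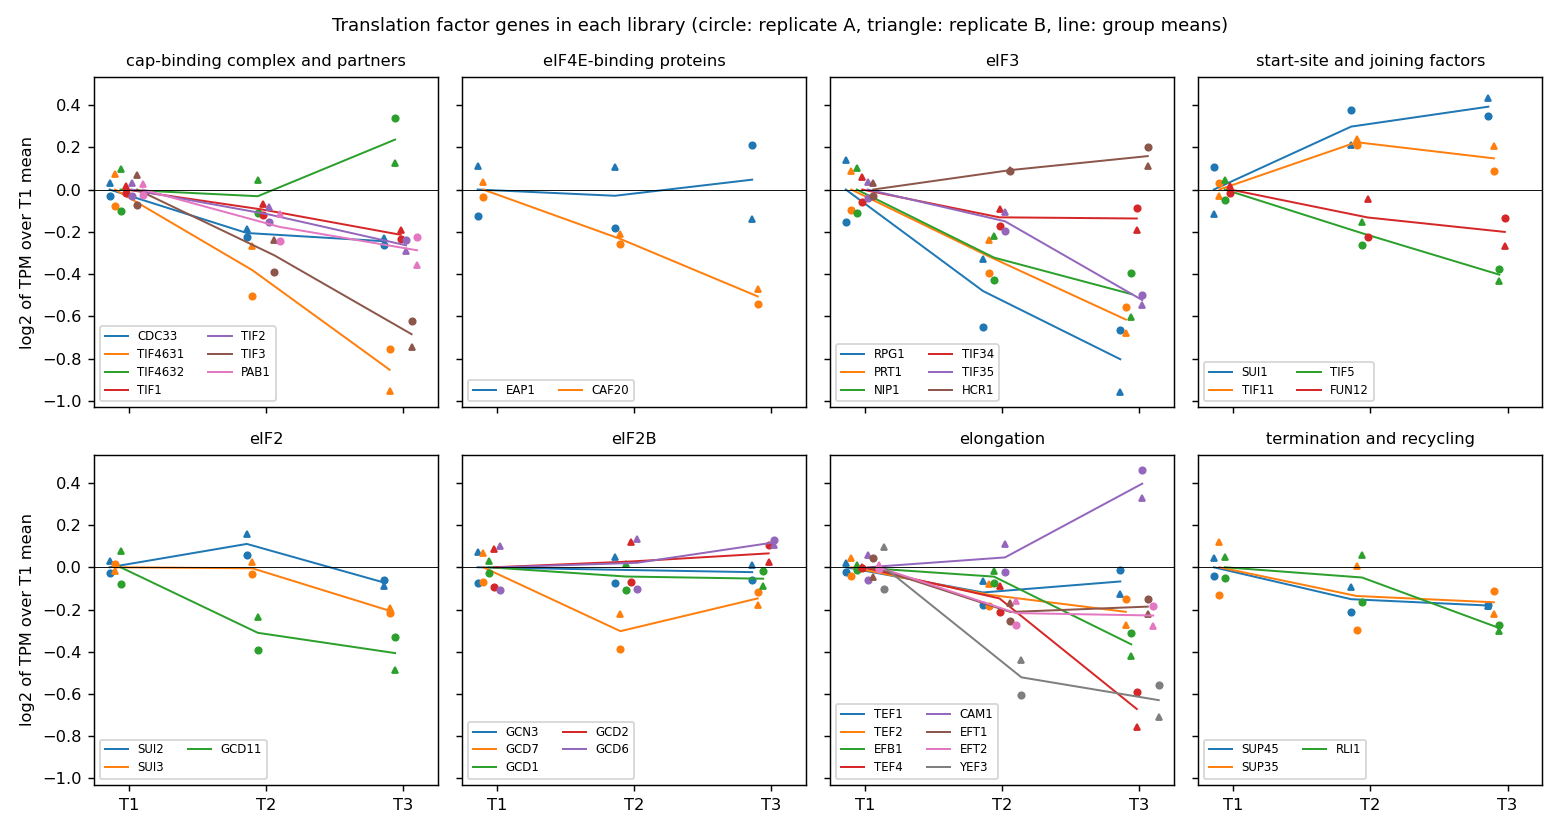
Log2 of the TPM of each of the 38 genes over its mean in T1, by library (circles, replicate A; triangles, replicate B), with lines through the group means, in 8 panels by complex. Most lines run down from T1 to T3, and that of GCD7 dips in T2. The lines of SUI1, CAM1, TIF4632, HCR1, TIF11, GCD6, GCD2 and EAP1 end above 0 in T3. Of these, SUI1 and CAM1 were called higher.

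The smaller steps were compared to ask where along the 3 groups the changes lay. They share the T2 libraries, and each shares libraries with the comparison of T3 and T1, so the values stand side by side. From T1 to T2, 6 members fell (TIF4631, TIF3, RPG1, PRT1, GCD11 and YEF3) and SUI1 rose, against 6.10% of all genes that fell, 11.9% that rose and 18.0% called in either direction. From T2 to T3, 6 fell (TIF4631, TIF3, CAF20, TIF35, EFB1 and TEF4) and CAM1 rose, against 6.09% of all genes that fell, 15.8% that rose and 21.9% in either direction. Group means went down at both steps for 26 of the 38 genes and up at both steps for 5.

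YEF3 and TEF4 were called at opposite steps. For YEF3 the log2 change was -0.52 from T1 to T2 (SE 0.09, adjusted p by limma = 0.00198) and -0.11 from T2 to T3 (adjusted p by limma = 0.451). For TEF4 it was -0.15 from T1 to T2 (adjusted p by limma = 0.258) and -0.52 from T2 to T3 (SE 0.09, adjusted p by limma = 0.000862). TIF4631 and TIF3 were called at both steps, with log2 changes of -0.38 and -0.47 for TIF4631 (adjusted p by limma = 0.0278 and 0.00833) and of -0.31 and -0.37 for TIF3 (adjusted p by limma = 0.036 and 0.0127). A test of the difference between the steps called 0 of the 38 genes with limma. Over all genes 0.761% were called higher, 0.314% lower and 1.08% in either direction. An unadjusted p under 0.05 was found for 5 of the 38 members and for 781 of all 6046 genes. The steps are therefore not shown to differ for any member. These counts moved with single libraries. Falls from T1 to T2 numbered 1 without T1 replicate B and 1 without T2 replicate A, against 4.33% and 2.53% of all genes. Falls from T2 to T3 numbered 1 without T2 replicate B and 3 without T3 replicate B, against 2.83% and 4.13% of all genes. A count of 1 is 2.63% of the members, so in the settings with 1 fall the members' share was near or below that of all genes. The rise of SUI1 from T1 to T2 was not called without T1 replicate B or without T2 replicate A, nor was that of CAM1 from T2 to T3 without T2 replicate A or without T3 replicate A.

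The replicates differed with gene length. Over the 38 genes, replicate B exceeded A for 34 genes in T1 and 37 in T2, and for 7 in T3. The Spearman correlation of this difference with exonic length over the 38 genes was 0.49 (T1), 0.79 (T2) and -0.66 (T3), and 0.35, 0.43 and -0.31 over 5840 tested genes with a known length. The genes share their libraries, so these values describe the libraries. SUI1, the shortest member at 327 bases, was lower in B than in A in T1 and T2 and higher in T3, opposite to the long genes. The change from T1 to T3 had a correlation with length of -0.22 over the members and -0.07 over all genes. With each library's trend on length removed, 28 members fell and 3 rose from T1 to T3, against 29.5% and 29.4% of the genes with a known length. The part of length in single changes was not tested.

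**Figure D4:**
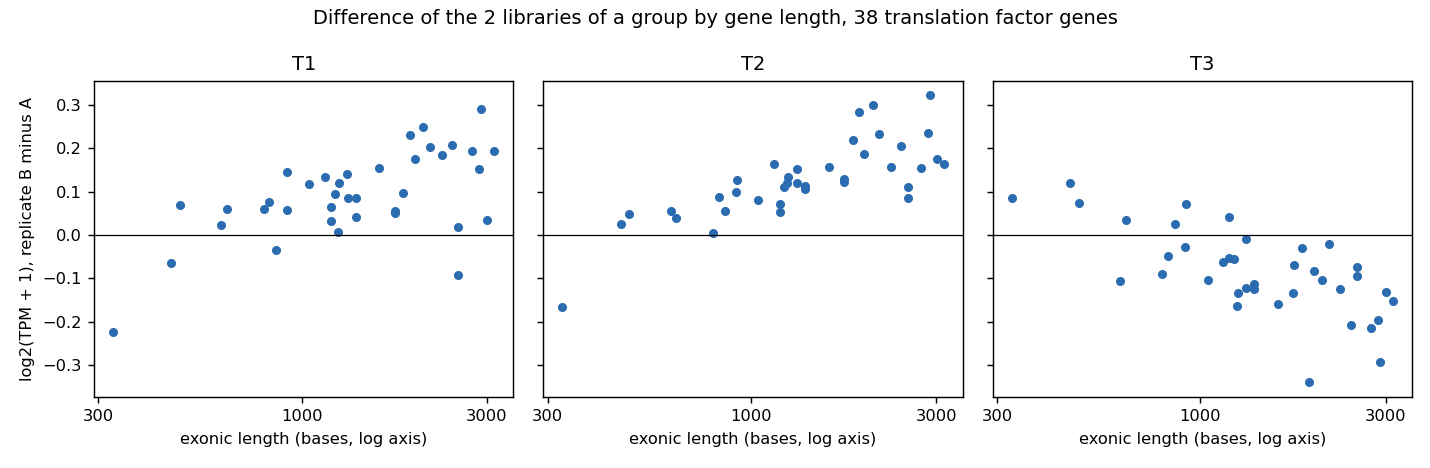
Difference of replicate B minus A in log2(TPM + 1) against exonic length (log axis) for the 38 genes, by group. The points climb with length in T1 and T2 (Spearman 0.49 and 0.79) and descend in T3 (-0.66).

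Genes with and without the AAAATTTT core were set side by side for the change from T1 to T3. Among the members, 15 of 24 with the core fell (62.5%) and 4 of 14 without it fell (28.6%). The median log2 changes were -0.26 and 0.01. Among all other tested genes, 185 of 506 with the core fell (36.6%) and 767 of 5243 without it fell (14.6%), with medians of -0.14 and 0.11. The members with the core that did not pass as lower include SUI1, which rose, and TEF1, SUP45, SUP35, SUI2, SUI3, GCD1, EFT1 and FUN12. TIF2, PAB1, CAF20 and TEF2 fell without it in the window from 250 bases before to 50 bases after the start codon. These shares are a description of the letters in that window, which in PRT1 lie inside the coding sequence, and were not tested.

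A further list of 18 genes that act in or on cytosolic translation was set beside the members. From T1 to T3, 4 fell (22.2%) and 3 rose (16.7%), against 16.9% and 31.0% of all genes, with a median log2 change of -0.05. LIA1, the gene of an enzyme that completes the hypusine of eIF5A, went from 170.5 and 171 TPM in T1 through 118 and 124 TPM in T2 to 91.6 and 84.5 TPM in T3 (log2 change -0.95, SE 0.09, adjusted p by limma = 2.09e-06). DED1, a helicase gene of scanning, went from 80.7 ± 13.4 to 45.7 ± 5.53 TPM (log2 change -0.80, adjusted p by limma = 0.000126). MBF1, which encodes a coactivator of Gcn4, changed on the log2 scale by -0.50 (adjusted p by limma = 0.000102). NEW1, a gene of the eEF3 family, was the fourth to fall, a call lost without T1 replicate B or T3 replicate B. Among the rises, HEF3, the second eEF3 gene, went from 3.24 and 2.96 TPM to 6.22 and 5.55 TPM, and ANB1, the eIF5A gene of low oxygen, from 1.68 and 2.16 TPM to 4.28 and 4.52 TPM (adjusted p by limma = 0.00316 and 0.00319). Both stayed far below their partners, YEF3 at 569.9 TPM or more and HYP2 at 3667 TPM or more. GCN2, the eIF2 kinase gene, rose 1.35-fold to 21.2 ± 0.44 TPM (adjusted p by limma = 0.00845, and 0.0505 without T3 replicate A). GCN4, the gene of the activator whose own translation rises when eIF2B is slowed, lay at 607 and 579 TPM in T1, 648 and 669 TPM in T2, and 805 and 859 TPM in T3, a rise of 1.40-fold (log2 change 0.49, SE 0.08, adjusted p by limma = 0.000206). Transcript levels say nothing of how much of each factor was translated.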

How the data were processed

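Per the labels' protocols, poly(A) RNA was enriched with oligo(dT) beads and sequenced in pairs of 150 bases. Per the submitters' processing notes, STAR 2.5.2b, featureCounts, Subread 1.5.2 and build R64 were used. Their settings are not given in the sources used here, so whether reads on opposite strands were counted apart is not known. The deposited values are TPM made by the authors, 1 column per library. Names were matched to the RefSeq annotation of R64 for 6081 of 6400 entries.

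Fragments were recovered as TPM times exonic length, divided by a factor for each library that was chosen to make low values nearly whole. Among reading frames of up to 500 fragments, 99.8 to 99.9% then came within 0.1 of a whole number. The recovered fragments were used for depth only. The 6046 genes whose mean reached 1 TPM were transformed as log2(TPM + 1) and fitted in limma 3.58.1 (R 4.3.3) with group means of all 6 libraries and eBayes with an abundance trend (3 residual and 10.7 prior degrees of freedom). The tests, all two-sided, had Benjamini-Hochberg adjustment over all 6046 genes at 0.05. Folds are on that log scale. The fit was tested on simulated data. Sequences, matches and identities come from the R64 genome of RefSeq, with Biopython 1.88; Python 3.11.15, pandas 2.3.3, SciPy 1.17.1 and matplotlib 3.10.9 were also used. All 38 members are named by rule, with up to 6 called genes of each further list and GCN4; NEW1 was named after its values were seen. The members and lists were chosen with earlier results of these data known. Alternatives covered the pseudocount, filter, scaling, length trend, variance model, replicate block, summed pairs, libraries in the fit and each library left out.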

Additional observations from a re-analysis of the deposited data

How the results depend on the processing

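Of the 21 members called from T1 to T3, 11 kept their call in all 17 alternatives (CAF20, GCD11, NIP1, PRT1, RPG1, TEF4, TIF3, TIF35, TIF4631, TIF5 and YEF3) and 10 lost it in at least 1. YEF3 from T1 to T2 and TEF4 from T2 to T3 were the calls held in all alternatives for those steps. No member's call changed sign. TMA20, of the further list, had a log2 change of 0.01 and passed as lower after quantile normalization (-0.19, adjusted p = 0.0369). From T1 to T3, rises numbered 1 after median-of-ratios rescaling and 1 after quantile normalization, against 26.3% and 23.5% of all genes. With 1 library left out, the members' median log2 change ranged from -0.23 to -0.18, and that of all genes from 0.06 to 0.12. From T1 to T2, falls numbered 3 with no filter, 12 after median-of-ratios rescaling, 18 after quantile normalization, 17 with the length trend removed and 1 without the abundance trend, against 4.67%, 8.90%, 10.1%, 13.3% and 3.67% of all genes. Rises there were 0 in these 5 settings and 2 among genes of at least 10 TPM, against 8.95% to 14.8% and 14.1% of all genes. With 1 library left out, the members' median log2 change from T1 to T2 ranged from -0.19 to -0.08, and that of all genes from -0.03 to 0.07. Falls from T2 to T3 numbered 12 (median of ratios), 13 (quantile), 20 (length trend removed) and 3 (no abundance trend). The shares of all genes in these settings were 11.3%, 12.1%, 16.3% and 3.39%. Rises were 0 after quantile normalization and without the abundance trend, against 11.7% and 12.6% of all genes. With 1 library left out, falls ranged from 1 to 8 and rises from 0 to 1. Of all genes, 2.83% to 8.19% fell and 7.69% to 19.7% rose in these settings. The members' median log2 change from T2 to T3 then ranged from -0.15 to -0.02, and that of all genes from 0.03 to 0.12. The causes were not tested. With the letters A and B as a replicate block, 16 members fell and 2 rose from T1 to T3, against 16.5% and 30.2% of all genes. The letters are not shown to pair the libraries, since deviations correlated at 0.132 (T1 with T2), -0.0578 (T1 with T3) and -0.15 (T2 with T3). A group with 1 library left was assumed to vary like the others.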

Other observations

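Mitochondrial translation factors, which serve the ribosomes inside the organelle and are encoded in the nucleus, were listed as a comparison. Of 8 genes, 1 fell and 1 rose from T1 to T3 (12.5% each, limma adjusted p under 0.05), against 16.9% and 31.0% of all genes, with a median log2 change of -0.06. MEF1 and MEF2 belong to the bacterial elongation factor G family, MEF1 acting in elongation and MEF2 in ribosome recycling. MEF1 lay at 65.7 and 74.3 TPM in T1 and at 59.2 and 53.0 TPM in T3 (log2 change -0.31, limma adjusted p = 0.0363), and its call was lost without T1 replicate B, among 4 settings, with adjusted p-values up to 0.212. MEF2 lay at 17.5 and 20.9 TPM in T1 and at 26.3 and 23.8 TPM in T3 (log2 change 0.37, limma adjusted p = 0.0177), and its call was lost without T1 replicate A or T3 replicate A, with adjusted p-values up to 0.157. TUF1, the gene of the organelle's elongation factor Tu, had the highest level of the list, at 346 ± 18.6 TPM in T1 and 306 ± 28.2 TPM in T3 (SD, n = 2, limma adjusted p = 0.147). From T1 to T2 and from T2 to T3, 0 of the 8 genes were called by limma, against 18.0% and 21.9% of all genes. Of the 8, 1 and 0 had an unadjusted p under 0.05, against 1897 and 2108 of 6046 genes. The difference between the cytosolic and the mitochondrial factors was not tested.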
